A study of Mus musculus with 4 samples.

Results

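The genes described here encode carriers that move amino acids and small peptides across membranes. They were chosen by name: a gene is a member if its single symbol in the platform annotation starts with Slc3a, Slc6a, Slc7a, Slc15a, Slc36a, Slc38a or Slc43a, and the feature with the highest mean over the 4 arrays stands for it. This gave 62 genes, out of 19938 genes with a single symbol. Of the 62, 39 passed the filter on dim genes (a mean of at least 6.16 on the log2 scale) and were tested, and 23 were too dim. The names Slc6a19os and Slc7a6os also match the rule, although they belong to genes on the opposite strand of a transporter gene, so 60 of the members are transporter genes proper.

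RNA levels were measured on 4 single-colour arrays in the dorsal cortex of embryonic mice at E18.5 (days of embryonic development). The 2 control samples were Mek1fl/wt and Mek2-/-, and the 2 mutant samples were Mek1fl/fl, Mek2-/- and NestinCre. All 4 arrays thus come from tissue without Mek2, although the design text describes the controls as wild type. NestinCre expresses Cre recombinase in neural progenitors, from which neurons and glia arise. It is named for the mutants only, and its own effect cannot be told apart from that of losing Mek1. Mek1 and Mek2 (Map2k1 and Map2k2) encode the kinases that activate ERK. The dorsal cortex genes Emx1, Emx2, Tbr1, Bcl11b and Fezf2 averaged between 9.32 and 9.53 on the 4 arrays. Emx2 alone of these had a lower mean in the mutants, at 7.80 and 7.86 in controls against 6.70 and 7.56 in mutants (adjusted p = 0.363 in limma). Map2k1 read 8.76 and 8.84 on the control arrays against 8.50 and 8.73 on the mutant arrays (adjusted p = 0.469 in limma), and Map2k2 read 8.57 and 8.47 against 8.57 and 8.64. Which probes lie in the deleted parts is not known here, so these values do not check the genotypes. No label says whether the arrays of a group came from separate litters, so p-values measure only the spread between these samples.

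Amino acid carriers fall into families with different partners and driving forces. Slc7a light chains mostly reach the cell surface bound to a heavy chain, Slc3a2 or Slc3a1, and exchange one amino acid for another. Slc6a and Slc38a carriers draw their cargo in with sodium, whereas Slc15a and some Slc36a carriers use protons. In the brain astrocytes take up transmitters and return glutamine to neurons, and endothelial cells of the blood-brain barrier carry large neutral and cationic amino acids in from the blood.

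The bases upstream of the start site are shown for 3 members that the results turn on: Slc15a2, the member that fell; Slc7a11, a dim member with lower values in the mutants; and Slc3a2, the heavy chain shared by most light chains. The set of upstream RefSeq sequences used here (GRCm38.p6) listed 45 of the 62 members. Sequences run 5′ to 3′ on the gene's own strand, and end at the base before the start. Capitals mark matches, on either strand, to the ETS core CCGGAA, to TGATGNAA, which ATF4 and C/EBP proteins bind together, or to the AP-1 motif TGANTCA. No match of one overlapped a match of another in these windows.
Slc15a2 (chr16:36784963-36785212, minus strand): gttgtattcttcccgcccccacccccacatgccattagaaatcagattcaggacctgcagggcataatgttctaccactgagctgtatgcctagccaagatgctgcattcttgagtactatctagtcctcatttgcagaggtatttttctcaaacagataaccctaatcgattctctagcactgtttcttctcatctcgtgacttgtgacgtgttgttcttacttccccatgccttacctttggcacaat
Slc7a11 (chr3:50443614-50443863, minus strand): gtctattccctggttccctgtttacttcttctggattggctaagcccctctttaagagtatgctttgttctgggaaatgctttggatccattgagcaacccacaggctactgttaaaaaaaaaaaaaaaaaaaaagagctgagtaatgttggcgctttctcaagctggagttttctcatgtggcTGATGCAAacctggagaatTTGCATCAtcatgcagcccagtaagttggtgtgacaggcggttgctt
Slc3a2 (chr19:8713898-8714147, minus strand): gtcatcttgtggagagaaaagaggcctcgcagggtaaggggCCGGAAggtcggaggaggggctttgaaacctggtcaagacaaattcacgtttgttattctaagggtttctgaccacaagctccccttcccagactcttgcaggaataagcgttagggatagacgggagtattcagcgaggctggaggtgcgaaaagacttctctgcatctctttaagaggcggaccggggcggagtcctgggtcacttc
The Slc15a2 window held none of the 3 motifs, the Slc7a11 window held 2 copies of TGATGNAA in opposite orientation, and the Slc3a2 window held 1 ETS core. Over all 32851 upstream windows of 250 bases, CCGGAA was found in 12.03%, TGATGNAA in 3.45% and TGANTCA in 6.75%. Some genes have several windows; of the 66 windows of the 45 members listed, 16.7% held CCGGAA, 6.06% TGATGNAA and 15.2% TGANTCA. A match describes letters and is no evidence of binding.

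Most amino acid and peptide transporter genes differed by less than 0.1 on the log2 scale between mutant and control cortex, while Slc15a2 fell and a few other carriers had lower values in the mutants without passing the test. In limma 1 of the 39 tested members was called lower at an adjusted p under 0.05 and 0 were called higher. Over all 13956 genes tested, 1.01% were called lower and 0.0143% higher. These shares stand for 141 and 2 genes, and the 141 became 9 without either control, 15 with no filter on dim genes, 0 when every feature was tested, 230 without mutant 1 and 731 without mutant 2. At an unadjusted p under 0.05 there were 4 members with lower and 4 with higher means, together 20.5% of the 39, against 13.4% of all genes in either direction. The median difference (mutant minus control) over all 62 members was 0.02, beside 0.01 over all 19938 genes. Among the tested members, 26 (66.7%) differed by less than 0.1 on the log2 scale, as did 64.7% of all genes tested, and 3 (7.69%) differed by at least 0.3, against 5.30% of all genes.

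The array values were close within each group for most members. Both mutants lay below both controls for 7 tested members and above them for 6, where 21.4% and 22.8% of all genes tested did so, and the groups overlapped for the other 26. Among the tested members these shares were therefore no larger than among all genes tested. With the dim members included, both mutants lay below both controls for 14 of the 62 and above them for 10, where 18.6% and 22.5% of all 19938 genes did so. Over the 62 the share below was thus somewhat larger than among all genes, and the share above was smaller. These differences in share were not tested. The moderated 95% interval of the difference lay within 0.5 on either side of 0 for 34 of the 39 members, and for 92.5% of all genes tested. The other 5 were Slc15a2, Slc38a3, Slc6a11, Slc6a7 and Slc7a3.

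**Figure D1:**
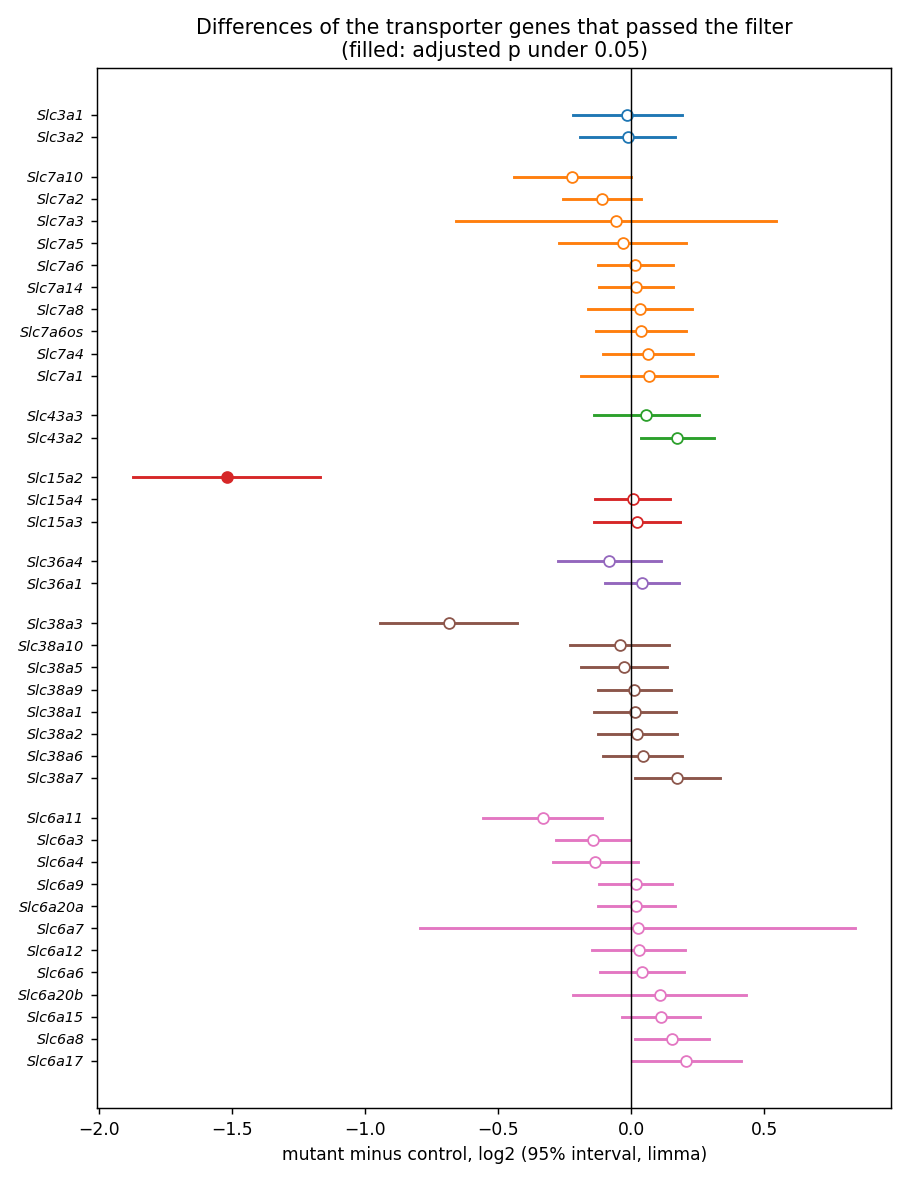
Difference between mutants and controls (log2, horizontal axis) for the 39 members that passed the filter, grouped by symbol prefix in colour, with moderated 95% intervals as lines. Slc15a2 at -1.52 is the only filled point, for an adjusted p under 0.05, and most other points lie within 0.1 of 0.

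Among the proton-coupled peptide carriers, Slc15a2 stood apart. Slc15a2 (Entrez 57738) encodes PEPT2, a high-affinity carrier of dipeptides and tripeptides known from astrocytes and choroid plexus in the brain. It read 9.06 and 8.77 on the control arrays and 7.54 and 7.25 on the mutant arrays. Both mutants lay more than 1 log2 unit below the lower control. Group means were 8.91 ± 0.21 and 7.39 ± 0.21 (SD, n = 2 each), a fall of 2.87-fold with a difference of -1.52 ± 0.14 (SE; limma adjusted p = 0.0251). Its difference ranked 9 from the lowest among 13956 genes. The difference stayed between -1.67 and -1.37 under 13 other settings, but the call was lost without control 1 (adjusted p = 0.117 in limma) and without control 2 (adjusted p = 0.0678). It was also lost with no filter on dim genes (adjusted p = 0.0660 in limma) and when every feature was tested (adjusted p = 0.269). A block of crossed pairs, control 1 with mutant 2 and control 2 with mutant 1, was chosen after seeing the data. The Slc15a2 call was lost with this block too (adjusted p = 0.0540 in limma). These pairs match in Xist, which read 11.90 and 5.35 in controls against 4.81 and 11.89 in mutants. Each group thus held 1 array with high and 1 with low Xist.

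The other tested peptide carriers differed by less than 0.1 between the groups. Slc15a4, a lysosomal carrier of histidine and peptides, read 8.77 and 8.78 in controls against 8.81 and 8.76 in mutants. Its relative Slc15a3, also lysosomal, read 6.74 and 6.66 in controls against 6.77 and 6.68 in mutants. The groups overlapped for both genes, and the 95% intervals of the differences ran from -0.14 to 0.15 and from -0.14 to 0.18. Slc15a1, the intestinal peptide carrier PEPT1, and Slc15a5 were too dim to be tested, with control means of 4.78 and 5.68.

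In the Slc38a family of sodium-coupled glutamine carriers, Slc38a3 had the lowest values relative to controls. Slc38a3 encodes SNAT3, the system N carrier by which astrocytes exchange glutamine. It read 9.00 and 9.01 in controls against 8.18 and 8.46 in mutants. The groups did not overlap, and mutant 1 was the lower of the mutants. The difference was -0.68 ± 0.10 (SE), a ratio of 1.61-fold, with an adjusted p of 0.0615 in limma, so it did not pass. Under 13 other settings the difference stayed between -0.83 and -0.54, and 4 of them called it. In limma these were the stricter filter (adjusted p = 0.0454), an intensity trend (adjusted p = 0.0287) and the fits without mutant 1 or without mutant 2. It was not called with no filter on dim genes (adjusted p = 0.140 in limma) or when every feature was tested (adjusted p = 0.364). Nor was it called with the replicate number as a block (adjusted p = 0.0716 in limma) or without either control.

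The system A carriers, which supply neurons and other cells with glutamine and alanine, had close values in both groups. Slc38a1 (SNAT1) read 10.99 and 10.94 in controls against 11.02 and 10.94 in mutants, and Slc38a2 (SNAT2), which is induced when amino acids are scarce, read 11.34 and 11.28 against 11.36 and 11.31. The interval for Slc38a2 ran from -0.12 to 0.17. Slc38a5, another system N carrier, read 8.09 and 8.10 against 8.13 and 8.01. Slc38a9, the lysosomal arginine sensor of the mTORC1 pathway, differed by 0.01. The difference between Slc38a3 and these relatives was not tested.

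Slc38a7, a lysosomal glutamine exporter, went the other way. It read 9.20 and 9.31 in controls and 9.43 on both mutant arrays, which gave a difference of 0.17 ± 0.06 (SE) and no call (adjusted p = 0.337 in limma). Slc38a6 read 8.03 and 8.06 in controls against 8.05 and 8.13 in mutants, and Slc38a10 read 8.89 and 8.96 against 8.81 and 8.96, with overlapping groups for both. The remaining 3 members of the family, Slc38a4, Slc38a8 and Slc38a11, were too dim to be tested, with control means between 5.61 and 6.02.

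**Figure D2:**
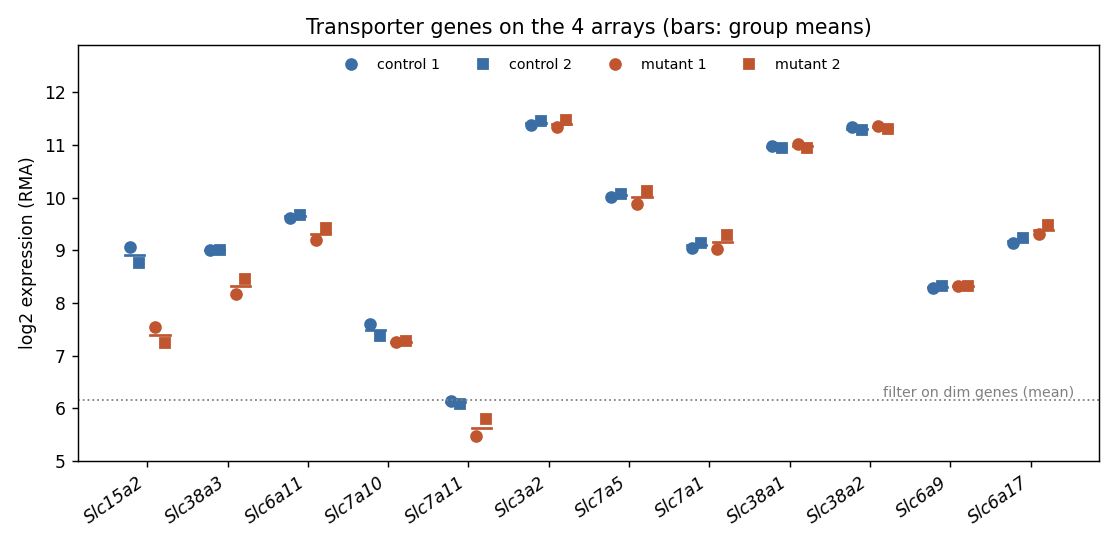
Log2 expression (RMA, vertical axis) of 12 members on the 4 arrays, with circles and squares for replicates 1 and 2, blue for controls and orange for mutants, and short bars for group means. The dotted line is the mean (6.16) under which genes were not tested; for Slc15a2, Slc38a3, Slc6a11, Slc7a10 and Slc7a11 both mutants lie below both controls.

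The Slc6a family holds the sodium- and chloride-coupled carriers of transmitters and neutral amino acids, and 12 of its 21 members were tested. None was called in limma, and 2 had lower and 2 had higher means at an unadjusted p under 0.05. Together these made 33.3% of the 12 tested, against 13.4% of all genes tested. Slc6a11 encodes GAT3, a GABA carrier of astrocytes. It read 9.61 and 9.68 in controls against 9.20 and 9.42 in mutants, with no overlap and the lowest value on mutant 1. The difference was -0.33 ± 0.09 (SE; adjusted p = 0.218 in limma), and it was called only without mutant 2 (-0.44, adjusted p = 0.0200 in limma).

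Glycine and taurine carriers gave nearly equal values in both groups. Slc6a9 (GLYT1), a glycine carrier known from glia, read 8.28 and 8.31 in controls against 8.32 and 8.31 in mutants, with an interval from -0.12 to 0.15. Slc6a6, the taurine carrier, read 9.99 and 10.03 in controls against 10.00 and 10.10 in mutants. Slc6a12, a betaine and GABA carrier, differed by 0.03 with overlapping groups.

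A set of 3 Slc6a carriers had slightly higher means in the mutants. Slc6a17, a carrier of neutral amino acids in synaptic vesicles, read 9.14 and 9.23 in controls against 9.30 and 9.48 in mutants, a difference of 0.21 ± 0.08 (SE; adjusted p = 0.368 in limma). Slc6a15, a neuronal carrier of branched-chain amino acids and proline, read 11.09 and 11.02 in controls against 11.17 and 11.15 in mutants (difference 0.11, adjusted p = 0.498 in limma). Slc6a8, the creatine carrier, read 7.98 and 8.00 against 8.13 and 8.16 (difference 0.15, adjusted p = 0.331 in limma). In all 3 the mutants lay above the controls, and none passed the test.

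The monoamine carriers gave low values, with Slc6a3 and Slc6a4 above the filter on dim genes and Slc6a2 under it. Slc6a3 (dopamine) read 6.95 and 6.93 in controls against 6.78 and 6.81 in mutants (difference -0.14, adjusted p = 0.362 in limma). Slc6a4 (serotonin) read 6.70 and 6.67 against 6.60 and 6.50 (difference -0.13, adjusted p = 0.447 in limma). Slc6a2 (noradrenaline) was not tested, with a control mean of 5.95 and both mutants higher by 0.18 on average. Slc6a20a and Slc6a20b are near-identical copies whose probes could share signal; they differed by 0.02 and 0.11 with overlapping groups.

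The heavy chains and most light chains of the heteromeric exchangers had overlapping values in the groups. Slc3a2 (4F2hc, also CD98), the heavy chain of most Slc7a exchangers, read 11.38 and 11.45 in controls against 11.34 and 11.47 in mutants. Its difference of -0.01 had a 95% interval from -0.19 to 0.17. Slc3a1 (rBAT), the heavy chain of the kidney cystine carrier, was close to the filter at 6.39 and 6.48 in controls against 6.51 and 6.33 in mutants. The sign of both differences changed with the array left out, and that of Slc3a2 also under further quantile normalization.

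Slc7a5 (LAT1), the exchanger that carries large neutral amino acids across the blood-brain barrier, read 10.00 and 10.08 in controls against 9.89 and 10.13 in mutants. The groups overlapped, and the interval ran from -0.27 to 0.21. Its relative Slc7a8 (LAT2) read 8.44 and 8.51 in controls against 8.42 and 8.59 in mutants, and Slc7a6 (y+LAT2) differed by 0.02. These carriers also transport thyroid hormone (Slc7a5 and Slc7a8) or arginine for glutamine (Slc7a6). None of the 3 differed between groups by more than its arrays differed within a group.

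Slc7a10 and Slc7a11 had lower values in the mutants, without a call. Slc7a10 (asc-1), an exchanger of small neutral amino acids including D-serine, read 7.59 and 7.37 in controls against 7.25 and 7.27 in mutants. The difference was -0.22 ± 0.09 (SE; adjusted p = 0.374 in limma). Slc7a11 (xCT), which exchanges cystine for glutamate and is known from astrocytes and meninges, read 6.14 and 6.09 in controls against 5.47 and 5.79 in mutants, so its mean over the arrays lay under the filter. Tested with no filter, its difference was -0.48 ± 0.12 (SE; adjusted p = 0.304 in limma), the lowest adjusted p among the 23 dim members.

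The tested cationic carriers and other Slc7a genes showed no call either. Slc7a1 (CAT1), the main arginine and lysine carrier, read 9.05 and 9.15 in controls against 9.03 and 9.29 in mutants. Slc7a2 (CAT2) read 7.45 and 7.44 in controls against 7.37 and 7.30 in mutants (difference -0.11, adjusted p = 0.501 in limma). Slc7a4 read 8.80 and 8.77 in controls against 8.78 and 8.91 in mutants, and the opposite-strand gene Slc7a6os read 9.34 and 9.37 against 9.32 and 9.45. Slc7a14 differed by 0.02, and the groups overlapped for all 3. Slc7a7 (y+LAT1), known from macrophages and microglia, was just under the filter, at 6.16 and 6.17 in controls against 6.03 and 5.95 in mutants. Tested with no filter, the Slc7a7 difference was -0.17 ± 0.07 (SE, adjusted p = 0.467 in limma).

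Of the Slc43a carriers, Slc43a2 (LAT4), which lets neutral amino acids leave cells, read 8.00 and 7.98 in controls against 8.18 and 8.14 in mutants. Both mutants were higher, by 0.17 ± 0.05 (SE), and the gene did not pass (adjusted p = 0.279 in limma). Slc43a3, a carrier of nucleobases, read 6.85 and 6.70 against 6.88 and 6.77. Slc43a1 (LAT3) was not tested, with a control mean of 6.05.

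The Slc36a carriers did not differ past the test. Slc36a4, a high-affinity carrier of proline and tryptophan, read 9.83 and 9.81 in controls against 9.65 and 9.82 in mutants, and the lower value was that of mutant 1 alone. Slc36a1 (PAT1), which exports amino acids from lysosomes, read 7.86 and 7.82 in controls against 7.89 and 7.87 in mutants. The interval for Slc36a1 ran from -0.10 to 0.18. Slc36a2 and Slc36a3 were too dim to be tested, with control means of 6.03 and 6.14.

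Glial markers were lower on the same arrays as Slc15a2 and Slc38a3. Of 10 astrocyte and radial glia markers, 9 were tested and 5 fell: Slc1a3, Aldoc, Fabp7, Aldh1l1 and Acsbg1. The mean of the 10 was 9.45 and 9.48 in controls against 8.21 and 8.48 in mutants. Mlc1 (-1.07, adjusted p = 0.0550 in limma), Gja1 (-0.78, adjusted p = 0.382) and Slc1a2 (-0.75, adjusted p = 0.352) had lower means without a call. Aqp4 was the marker under the filter, with a difference of -0.89 that was not tested, and Gfap differed by 0.04. Among 6 oligodendrocyte precursor markers, Pdgfra, Olig1 and Gpr17 fell, and the mean went from 7.65 and 7.67 to 6.36 and 6.34. Olig2 (-1.85, adjusted p = 0.0567 in limma) and Sox10 (-0.28, adjusted p = 0.172) had lower means without a call, and Cspg4 differed by 0.01. All 4 proliferation genes measured, Mki67, Top2a, Mcm3 and Bub1, fell as well. Of all genes tested, 1.01% were called lower. In tissue RNA, fewer cells of a type and less RNA per cell cannot be told apart, and the part of these cell types in the transporter results was not tested.

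Markers of other cell types that carry these transporters differed less. The mean of 8 endothelial markers lay between 7.59 and 7.63 in controls and between 7.51 and 7.69 in mutants, and none of the 7 tested was called in limma (0 at an unadjusted p under 0.05). For 4 pericyte markers the ranges were 8.22 to 8.36 and 8.32 to 8.49, and for 6 meningeal fibroblast markers 7.19 to 7.22 and 7.12 to 7.30. Neuronal markers averaged 11.01 and 10.99 in controls against 11.11 and 11.14 in mutants, and interneuron markers 9.30 and 9.42 against 9.21 and 9.42. Of 5 microglial markers tested Fcrls was called lower, and the mean of the 6 measured went from 7.04 and 7.05 to 6.77 and 6.82. At an unadjusted p under 0.05 in limma, 3 of these 5 had lower means and 0 higher, or 60%, against 13.4% of all genes tested. All 8 neuronal markers had higher means, 1 of them at that threshold. The count at that threshold was 1 for pericyte markers, with a higher mean, and 0 for meningeal fibroblast and interneuron markers.

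A marker of choroid plexus, where Slc15a2 is also known, varied widely between arrays. This was Ttr, the thyroxine carrier transthyretin, which read 6.67 and 9.15 in controls against 6.50 and 7.17 in mutants. Folr1 read 6.32 and 6.31 in controls against 6.26 and 6.13 in mutants, and Aqp1 read 6.56 and 6.64 against 6.84 and 6.57. Kl, Kcnj13 and Clic6 were under the filter, and none of the tested markers was called. Mean levels of the 6 choroid plexus markers were 6.01 and 6.52 in controls against 6.08 and 6.11 in mutants. The part of choroid plexus in the Slc15a2 result was not tested.

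The mutant arrays differed in how far they lay from controls, and not in the same order for each carrier. Relative to the control mean, Slc38a3 lay at -0.83 on mutant 1 and -0.54 on mutant 2, and the mean of the astrocyte and radial glia list lay at -1.26 and -0.99. Slc7a11 lay at -0.65 and -0.32. Slc15a2 had the opposite order, with -1.37 on mutant 1 and -1.67 on mutant 2.

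**Figure D3:**
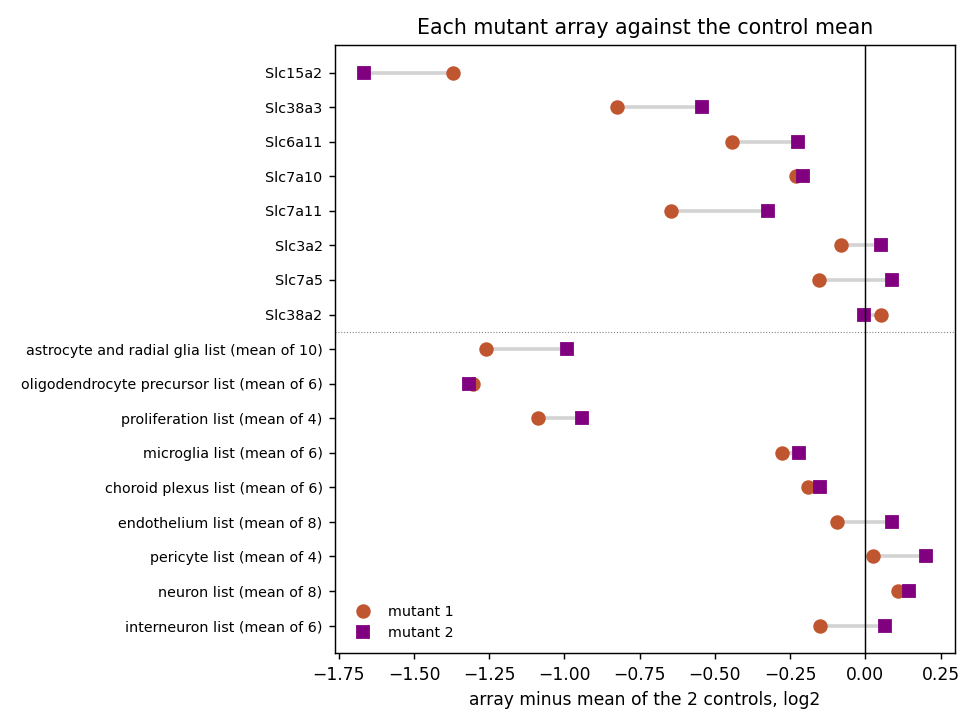
Each mutant array minus the mean of the 2 controls (log2, horizontal axis), for 8 members above the dotted line and for the mean of 9 marker lists below it. The astrocyte and radial glia, oligodendrocyte precursor and proliferation lists lie between -1.32 and -0.94 on both arrays, and Slc3a2, Slc7a5 and Slc38a2 lie near 0.

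Genes of the amino acid response, the programme that ATF4 drives when amino acids run short, showed no call. Of 38 on the list 34 were measured and tested, none was called in either direction in limma, and the median difference was 0.03. At an unadjusted p under 0.05 there were 4 with lower and 3 with higher means, together 20.6% of the 34, against 13.4% of all genes tested. Among genes with higher means the smallest p belonged to Mthfd2, a mitochondrial folate enzyme (0.35, adjusted p = 0.137 in limma), Ddit3, or CHOP (0.19, adjusted p = 0.311), and Jdp2 (0.14, adjusted p = 0.373). Among genes with lower means it belonged to Psat1, an enzyme of serine synthesis (-0.29, adjusted p = 0.203 in limma), Stc2 (-0.21, adjusted p = 0.318) and Cth (-0.15, adjusted p = 0.343). The lowest difference on the list was that of Phgdh, which opens serine synthesis, at -0.43 (adjusted p = 0.375 in limma), with mutant 1 at 8.23 and mutant 2 at 8.75 against 8.94 and 8.90 in controls. Asns and Chac1, classical targets of ATF4, differed by 0.17 and 0.09, and Atf4 itself by 0.09. Without mutant 2, Phgdh and Psat1 were called lower, as were 731 of all genes tested.

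Of 23 amino acid carriers outside the member families, 20 were tested and 1 fell. That was Slc1a3 (GLAST), the glutamate carrier of radial glia and astrocytes, at 10.35 and 10.43 in controls against 8.84 and 8.89 in mutants (difference -1.53, adjusted p = 0.00538 in limma). Slc1a2 (GLT-1), the other astrocytic glutamate carrier, read 8.87 on both control arrays and 7.66 and 8.57 on the mutant arrays, and did not pass (adjusted p = 0.352 in limma). Slc25a13 and Slc25a18, mitochondrial carriers of aspartate and glutamate, differed by -0.31 and -0.34, and the synaptic vesicle carriers Slc17a7 and Slc32a1 by 0.22 and 0.03, none of them called. The neuronal glutamate carrier Slc1a1 differed by 0.09 and Slc25a22, a mitochondrial glutamate carrier, by 0.11, also without a call.

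A pair of members varied more within groups than between them, and were singled out after their values were seen. Slc6a7, a proline carrier of excitatory terminals, read 7.06 and 7.45 in controls against 6.80 and 7.76 in mutants. Slc7a3 (CAT3), a cationic carrier of neurons, read 6.97 and 7.31 in controls against 6.75 and 7.42 in mutants. In both, replicate 2 was the higher array in each group, and the group means differed by only 0.03 and -0.06. Among the 39 tested members only these 2 had gaps over 0.3 in both groups, as did 86 of the 13956 genes tested. Their intervals, from -0.79 to 0.84 and from -0.66 to 0.54, leave room for differences of more than 0.5 in either direction.

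**Figure D4:**
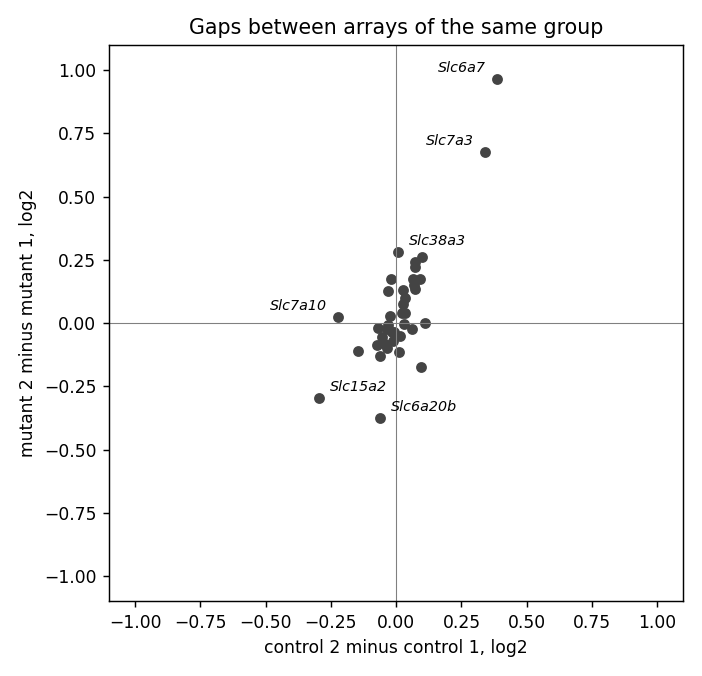
Gap between the 2 control arrays (log2, horizontal axis) against the gap between the 2 mutant arrays (log2, vertical axis), one point for each of the 39 tested members. Slc6a7 and Slc7a3 stand at the upper right, with replicate 2 higher in both groups, and the other members lie within 0.38 of 0 on each axis.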

How the data were processed

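Total RNA (200 ng per array) from 2 control and 2 mutant samples of embryonic dorsal cortex was hybridised to single-colour whole-transcript arrays, per the labels. The sample titles do not say whether an array holds 1 embryo or a pool. The deposited table has 35557 features as log2 values. The submitters' processing notes name RMA as the authors' method; its version, the genome build and any filter were not given in the sources used here. That the values are log2 was inferred from their span of 1.39 to 14.23. RMA gives all arrays a similar distribution and compresses the differences of dim genes, and no scanner flags were used.

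Of the features, 21789 had 1 gene symbol, 1621 had several and 12147 were not listed. The brightest feature stood for each of 19938 genes. Genes under the 30th percentile of means were left out, and 13956 were tested with limma 3.58.1 in R 4.3.3 (lmFit, eBayes without trend, no covariate; 2 residual and 3.31 prior degrees of freedom), with Benjamini-Hochberg adjustment over all of them. The fit was run on simulated data with independent errors and only large changes, which does not show how well small differences are found. Values are mean ± SD or difference ± moderated SE. Members and lists were chosen with earlier results of these data known. All members may be named; values on all arrays are given for called members and, within each symbol-prefix family, the 3 largest differences each way among tested members and the brightest. From the lists of amino acid response genes and of other carriers the 3 genes with the smallest p each way are named. Slc7a11, Slc38a1, Slc6a6, Slc6a9, Slc7a6, Slc7a7, Slc7a8, Slc6a7, Slc1a2, Phgdh, Asns, Chac1, Atf4 and Slc32a1 were added after their values were seen. The alternatives were other filters on dim genes, an intensity trend, median centring, further quantile normalization, averaged features, every feature tested, a replicate block and each array left out. The controls and mutants share replicate numbers, which no label ties to litters.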

Additional observations from a re-analysis of the deposited data

Results flagged for a closer look

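Slc38a1 has a second, dimmer feature that stood outside the comparison. On it both mutants exceeded both controls: it read 10.14 and 10.20 in controls and 10.37 and 10.27 in mutants, a difference of 0.15. The brighter feature of the same gene differed by 0.01 with overlapping groups. The 2 features were not tested against each other.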

How the results depend on the processing

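Slc15a2 was lower under each of the 13 alternatives and called under 8. The number of transporter members called lower was 0 with no filter on dim genes, 0 when every feature was tested, 2 under the stricter filter, 2 with an intensity trend and between 0 and 3 with 1 array left out; Slc38a3 was the second member, and Slc6a11 the third. Over all genes the same fits called lower 15 (no filter), 0 (every feature), 130 (stricter filter), 217 (trend) and between 9 and 731 (1 array left out); the 3 members stand beside the 731, both without mutant 2. With the replicate number as a block it was 1. Deviations of arrays with the same number correlated at -0.158 over all genes tested and at 0.792 over the 39 members (0.548 without Slc6a7 and Slc7a3). The value over all genes includes Xist, whose large gaps ran in opposite directions in the 2 groups (11.90 and 5.35 in controls, 4.81 and 11.89 in mutants). It was not computed without Xist, so the values for all genes and for members cannot be compared directly. The crossed pairing, added after seeing the data, which also pairs arrays by their Xist level, gave 0 members called, and 17 of all genes. No member was called higher under any of the 13. Other carriers called lower numbered 0 when every feature was tested and between 1 and 2 with 1 array left out, and amino acid response genes between 0 and 2. The median over all members lay between -0.0085 and 0.0234 with 1 array left out.

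Differences near 0 changed sign with 1 array left out, and none of these genes was called: Slc3a1 from -0.101 to 0.0731, Slc3a2 from -0.0796 to 0.0534, Slc7a1 from -0.063 to 0.198, Slc7a3 from -0.395 to 0.28, Slc7a5 from -0.153 to 0.0901, Slc7a6 from -0.00311 to 0.0357, Slc7a6os from -0.0281 to 0.103, Slc7a8 from -0.0533 to 0.119, Slc6a6 from -0.00886 to 0.0888, Slc6a7 from -0.458 to 0.508, Slc15a3 from -0.0214 to 0.0653, Slc15a4 from -0.0203 to 0.0311, Slc36a4 from -0.169 to 0.00634, Slc38a1 from -0.0275 to 0.0564, Slc38a2 from -0.0039 to 0.0522, Slc38a5 from -0.0841 to 0.0309, Slc38a10 from -0.118 to 0.0333 and Slc43a3 from -0.0163 to 0.131. Slc3a2 was at 0.0036 under further quantile normalization. The cause was not tested. With 1 array left out, the lone array of a group is assumed to vary like the others. Arrays number 4 in all, which limits the precision.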
